A study of Mus musculus with 2 samples.

Results

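The Ms4a genes of the myeloid cells in a mouse malignant pleural effusion were followed in 7 members, Ms4a4a, Ms4a4c, Ms4a6b, Ms4a6c, Ms4a6d, Ms4a7 and Ms4a8a. They are 7 of the 19 Ms4a genes among the 27998 genes listed in both count matrices, matched by symbol. The members were chosen from their measured UMI counts in these same 2 libraries, so their levels and the differences between cell states are given here as a description, with no test. The 7 members held 588 UMIs (Ms4a4a), 933 (Ms4a7), 8947 (Ms4a8a), 18465 (Ms4a4c), 19674 (Ms4a6b), 25235 (Ms4a6d) and 40290 (Ms4a6c) over all barcodes. Of the Ms4a genes left out, Ms4a4b had 1898 UMIs, Ms4a1 had 234, and none of the other 10 had more than 7.

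The libraries form 1 group, so the comparisons lie between cell states and not between treatments. The pleural space of the mice was injected with 150000 LLC cells (Lewis lung carcinoma, a mouse tumour line) suspended in 100 µl of PBS, and day 10 fluid was taken and its red cells were lysed. Live cells positive for CD45 (a leukocyte antigen) and CD11b (an integrin of most myeloid cells) were sorted for droplet libraries (10x, version 2 chemistry), which count UMIs, tags of single RNA molecules, at transcript 3' ends. The labels give neither the strain, genotype, age nor number of the mice, and tumour-free animals were not analysed here. The labels do not name the animals behind each library, but the sex-linked RNA given below differs between the 2 libraries, so they are not the cells of 1 animal divided. Adjusted p-values below measure how far the differences between gates vary between these 2 libraries, which also differ in sex. A difference between the libraries that all gates share is removed in the fit.

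The MS4A family encodes small proteins that span the membrane several times and form assemblies at the cell surface or on internal membranes. Its best known gene, Ms4a1, encodes CD20 of B cells. Several other members are made by monocytes and macrophages, among them Ms4a4a, whose product associates with the fungal sugar receptor dectin-1, and Ms4a8a, described in alternatively activated and tumour-associated macrophages. Ms4a4b is best known from T cells. The genes lie side by side and arose by duplication, so members share sequence to different degrees.

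All 19 genes lie in 1 cluster on chromosome 19 of GRCm38, from 10962293 to 11640851 by GENCODE. Ms4a8a occupies chr19:11067471-11081102 on the minus strand and stands apart from the other members. Ms4a7 follows at chr19:11321039-11336146 on the minus strand, Ms4a4a at chr19:11375523-11392790 and Ms4a4c at chr19:11404770-11427246, both on the plus strand. The 3 Ms4a6 genes close the row, Ms4a6c at chr19:11469366-11482192 and Ms4a6b at chr19:11516512-11531256 on the plus strand and Ms4a6d at chr19:11586604-11604849 on the minus strand. Ms4a6b overlaps an antisense gene, Gm19261, Ms4a6c overlaps BE692007, and Ms4a4c overlaps the pseudogene Gm5692. Whether the counting used strand is not given in the sources used here, so reads of these overlapping genes may not be told apart.

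The coding sequences of Ms4a6b and Ms4a6c were 85.8% identical over 642 aligned bases, the highest value of the 21 pairs of members. Ms4a6b and Ms4a6d followed with 81.2%, and Ms4a6c and Ms4a6d with 77.4%. Ms4a4a and Ms4a4c were 68.2% identical, and the pairs between subfamilies lay between 55.6% and 63.9%. In the last 500 bases of their transcripts, where 3' end libraries are read, Ms4a4c shared 11.1% of its 50-base stretches with Ms4a4b or Ms4a4d, Ms4a6c shared 6.1% with Ms4a6b, and Ms4a6b shared 4.31% with Gm10212, Ms4a6c and Ms4a6d. The ends of Ms4a4a, Ms4a6d, Ms4a7 and Ms4a8a shared no such stretch with another gene of the cluster, although a stretch elsewhere in the Ms4a6d transcript matches the end of Ms4a6b. The values of the 3 Ms4a6 genes and of Ms4a4c therefore carry the uncertainty of shared reads.

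The RefSeq promoter table (GRCm38.p6) held 6 of the 7 members, all but Ms4a6d. The 250 bases before the start are shown for the pair with the most similar sequence, with identical runs of at least 12 bases in capitals. The window of Ms4a6b is chr19:11518309-11518558 and that of Ms4a6c is chr19:11469118-11469367, both on the plus strand. That of Ms4a6b lies inside the GENCODE gene, which begins at 11516512, so the bases before that gene start were not searched.
Ms4a6b: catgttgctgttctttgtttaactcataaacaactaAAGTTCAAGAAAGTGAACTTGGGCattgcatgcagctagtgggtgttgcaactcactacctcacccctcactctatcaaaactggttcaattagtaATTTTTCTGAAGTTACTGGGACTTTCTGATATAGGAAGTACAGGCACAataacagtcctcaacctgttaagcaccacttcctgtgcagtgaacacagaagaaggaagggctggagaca
Ms4a6c: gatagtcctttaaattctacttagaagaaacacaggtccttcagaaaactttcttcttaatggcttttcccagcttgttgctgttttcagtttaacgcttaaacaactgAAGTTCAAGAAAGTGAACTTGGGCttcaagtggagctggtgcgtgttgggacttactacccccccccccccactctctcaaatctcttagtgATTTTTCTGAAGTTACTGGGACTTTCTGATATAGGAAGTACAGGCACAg
These windows shared a run of 48 bases and another of 24 bases, and no other pair among the 15 pairs of members with a promoter shared a run of 12 bases. The longer run begins 118 bases before the start of Ms4a6b and 49 bases before that of Ms4a6c.

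The windows of Ms4a7, Ms4a8a and Ms4a4c are shown next, with the ETS core GGAA and its reverse complement TTCC in capitals. PU.1, a factor of myeloid cells, belongs to the ETS family. Their positions are chr19:11336147-11336396 for Ms4a7 and chr19:11081104-11081353 for Ms4a8a, both on the minus strand, and chr19:11407411-11407660 for Ms4a4c on the plus strand. A further RefSeq start of Ms4a7 is not shown. The window of Ms4a4c lies inside the GENCODE gene, which begins at 11404770, so the bases before that gene start were not searched.
Ms4a7: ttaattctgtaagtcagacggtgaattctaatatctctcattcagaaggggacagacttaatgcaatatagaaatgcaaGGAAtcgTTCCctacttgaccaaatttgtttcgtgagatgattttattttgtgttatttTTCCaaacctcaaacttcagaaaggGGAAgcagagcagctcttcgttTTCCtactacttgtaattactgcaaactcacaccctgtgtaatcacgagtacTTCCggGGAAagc
Ms4a8a: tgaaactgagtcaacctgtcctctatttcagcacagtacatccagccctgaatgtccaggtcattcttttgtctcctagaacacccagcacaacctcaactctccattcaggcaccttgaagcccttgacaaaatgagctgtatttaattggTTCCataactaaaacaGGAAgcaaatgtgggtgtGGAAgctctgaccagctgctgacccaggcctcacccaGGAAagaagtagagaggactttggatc
Ms4a4c: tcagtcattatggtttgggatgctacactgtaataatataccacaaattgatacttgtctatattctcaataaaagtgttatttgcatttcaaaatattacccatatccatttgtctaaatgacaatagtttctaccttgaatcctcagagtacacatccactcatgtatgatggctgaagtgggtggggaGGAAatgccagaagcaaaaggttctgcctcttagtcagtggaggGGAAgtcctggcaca
The ETS core was found 7 times in the window of Ms4a7, 4 times in that of Ms4a8a and 2 times in that of Ms4a4c. It occurred in 93.4% of the 32851 promoters of the table, so it sets no member apart. Each element was searched on both strands as a fixed string of letters, some with free positions, and near matches were not counted. No member window held the string of the interferon-stimulated response element (10 letters, 2.98% of promoters) or that of the ETS-IRF composite element (10 letters, 2.3%). Nor did any hold the PU.1 site GAGGAAGT (2.44%) or the gamma-activated site TTCNNNGAA (7.02%). The 24-base run shared by Ms4a6b and Ms4a6c holds the interferon string in all but its last base. Variant forms of the elements are thus not excluded. All matches of the composite element also hold an ETS core.

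Library 1 held 1141 barcodes with a median of 9894 UMIs and library 2 held 2908 with a median of 1954, of which 1106 and 2781 were kept. The libraries shared 4 barcode sequences. Itgam, the CD11b gene, was seen in 89.7% of kept cells of library 1 and 58.9% of library 2, and Ptprc, the CD45 gene, in 70.4% and 73.4%. Of 757 cells of library 1 with sex-linked RNA, 757 held only Y-linked RNA, whereas 1262 of 1429 such cells of library 2 held only Xist, so library and sex largely coincide. Counts of 2 antibody tags, BC2 and BC3, come with library 2, and what each tag marks is not given in the sources used here. The interferon set, 8 genes such as Ifit1, Isg15 and Rsad2, stood at 69 and 1006 CPM in the monocyte gate of libraries 1 and 2. CPM is the UMIs of a gene per 1000000 UMIs of the cells concerned.

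Cell states were gated on sums of marker genes per 10000 UMIs of a cell, without any Ms4a gene. The neutrophil gate (S100a8, Retnlg, Cxcr2 and others) held 80 and 1447 cells of libraries 1 and 2, and the monocyte gate (Ly6c2, Ccr2, Chil3 and others, little C1q) held 277 and 405. Cells with both monocyte genes and C1q (C1qa, C1qb, C1qc, Cd163, Folr2) formed a monocyte-macrophage gate of 131 and 401 cells. The C1q macrophage gate, with C1q and little of the monocyte set, held 172 and 38 cells. The resident macrophage gate (Alox15, Prg4, Saa3, Gata6 and others) held 27 and 21 cells, with UMIs of all 11 marker genes in both libraries. The dendritic gate (Cd209a, H2-DMb2, Klrd1, Flt3 and others, little C1q) held 128 and 30 cells, and 263 and 383 kept cells fell in no gate. The gates divide continuous marker levels: 341 of 1106 and 791 of 2781 kept cells lay within 1.5-fold of the monocyte threshold.

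**Figure D1:**
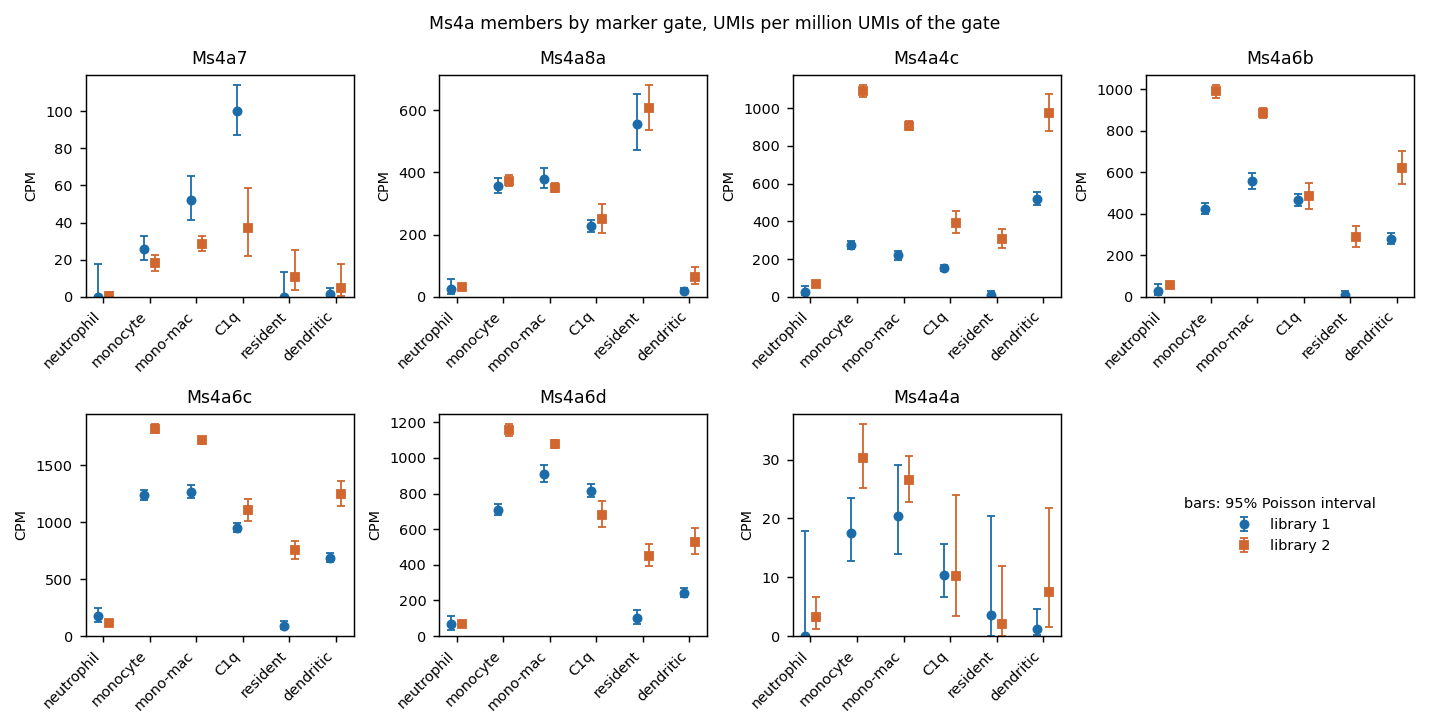
Level of each of the 7 Ms4a members in 6 marker gates, in UMIs per 1000000 UMIs (CPM, y axis from 0, a separate scale for each gene). Circles are library 1 and squares library 2, with exact 95% Poisson intervals. Ms4a7 peaks in the C1q gate and Ms4a8a in the resident gate of both libraries.

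Ms4a7 was the member of the C1q macrophages. Its level was 100 CPM in the C1q macrophage gate of library 1 (220 UMIs, interval 87.2 to 114) and 37 CPM in that of library 2 (18 UMIs, interval 22 to 58.6). The monocyte-macrophage gate followed with 52.2 and 28.5 CPM, and the monocyte gate with 25.9 and 18 CPM. In both libraries the order was C1q macrophage, monocyte-macrophage, monocyte, although the range over libraries of the first overlapped that of the second. Below them, the resident gate had 0 UMIs in library 1 and 5 UMIs (10.7 CPM) in library 2, and 0 UMIs over these cells allow up to 11 CPM by a floor of 3 counts. The dendritic gate had 1.29 and 4.95 CPM, from 2 UMIs in each library, and the neutrophil gate 0 and 0.456 CPM. Ms4a7 was thus higher in the C1q macrophage and monocyte-macrophage gates than in dendritic cells, neutrophils and resident macrophages, with monocytes in between. The resident gate itself carried the C1q set, at 3333 and 4259 CPM against 8675 and 7134 CPM in the C1q macrophage gate.

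Ms4a8a was highest in the resident macrophages. The resident gate held 555 CPM in library 1 (interval 471 to 651) and 606 CPM in library 2 (interval 537 to 681), and the mean over the 2 libraries was 581 ± 35.8 CPM (SD, n = 2). The monocyte-macrophage gate had 380 and 351 CPM and the monocyte gate 357 and 373 CPM, levels whose ranges overlapped each other and lay below the resident gate. The C1q macrophage gate was lower still, with 226 and 249 CPM. Dendritic cells had 18.7 and 64.4 CPM, and neutrophils 24.2 and 31 CPM. A UMI of Ms4a8a was seen in 27 of 27 and 21 of 21 resident-gate cells. After each cell was thinned to 1000 UMIs, the share of cells with a UMI was 25.9% in the resident gate of library 1 (interval 11.1% to 46.3%) against 23.5% of its monocytes and 36.6% of its monocyte-macrophages, and 47.6% (interval 25.7% to 70.2%) against 32.2% and 31.5% in library 2. The resident gate was thus not the highest by thinned share in library 1, and its intervals span the shares of the monocyte and monocyte-macrophage gates.

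Ms4a4c was the member of dendritic cells and monocytes. The dendritic gate held 521 CPM in library 1 and 973 CPM in library 2. The monocyte gate held 275 and 1090 CPM, the monocyte-macrophage gate 220 and 908 CPM, and the C1q macrophage gate 153 and 393 CPM. Within each library the level declined in that order from monocytes to C1q macrophages, but the dendritic gate led in library 1 and the monocyte gate in library 2. Library 2 was higher in every gate, so the ranges of neighbouring gates overlapped throughout. Ms4a4c is also the member whose transcript ends share most sequence with other genes of the cluster.

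Each of the 3 Ms4a6 genes was highest in the monocyte-macrophage gate of library 1 and in the monocyte gate of library 2. Ms4a6c had 1236 and 1820 CPM in monocytes, 1266 and 1719 CPM in monocyte-macrophages, 953 and 1105 CPM in C1q macrophages and 689 and 1248 CPM in dendritic cells. Ms4a6b had 424 and 990 CPM in monocytes, 556 and 886 CPM in monocyte-macrophages, 464 and 484 CPM in C1q macrophages and 280 and 619 CPM in dendritic cells. Ms4a6d had 710.5 and 1157 CPM in monocytes, 913 and 1079 CPM in monocyte-macrophages, 816 and 681 CPM in C1q macrophages and 242 and 530 CPM in dendritic cells. All 3 were lowest in neutrophils of library 2, with 116 CPM of Ms4a6c, 55.2 CPM of Ms4a6b and 68.9 CPM of Ms4a6d. In library 1 the neutrophil gate held more Ms4a6c (179 CPM) and Ms4a6b (29 CPM) than the resident gate (91.4 and 7.31 CPM), and Ms4a6d was lowest in neutrophils (67.7 CPM). Ms4a6d differed from its relatives in the dendritic gate, whose range lay below that of the C1q macrophage gate only for this Ms4a6 gene.

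Ms4a4a was the sparsest member. The monocyte gate had 17.5 and 30.2 CPM and the monocyte-macrophage gate 20.5 and 26.5 CPM, and the C1q macrophage gate followed with 10.5 and 10.3 CPM. None of the other 3 myeloid gates exceeded 7.43 CPM, and the neutrophil gate of library 1 had 0 UMIs. A UMI of Ms4a4a was seen in 13.4% of monocytes of library 1 and 24.7% of those of library 2. Levels near this floor leave the order of the dendritic, resident and neutrophil gates unresolved.

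Shares of cells with a UMI were also read in the neutrophil and lymphocyte gates. At 1000 UMIs per cell, Ms4a6c was seen in 6.25% of neutrophil-gate cells of library 1 and 4.64% of those of library 2, against 65% and 73.1% of monocytes. The unthinned shares were 11.2% and 7.26% in neutrophils, with median depths of 2180.5 and 1313 UMIs, and 99.3% and 97% in monocytes, with medians of 8726 and 9861 UMIs. The B gate (26 and 12 cells, medians of 5488 and 5265.5 UMIs) showed Ms4a6c in 11.5% and 25% of thinned cells, and the T or NK gate of library 2 (44 cells, median 9695 UMIs) in 20.5%. How much of this comes from free RNA was not tested, and shares of that size are not read as expression here. Ms4a7 was seen in 11% of thinned C1q macrophages of library 1 and in 0 of 80 thinned neutrophils, and in 1 of 36 and 0 of 1121 in library 2. The exact upper limits of those shares of 0 were 4.51% and 0.329%. Thinned monocyte-macrophages showed Ms4a7 in 3.05% and 2.05% of cells of libraries 1 and 2, and thinned monocytes in 2.53% and 1.28%. In library 2 the interval of the C1q macrophage share, 0.0703% to 14.5%, spans both.

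The first comparison set C1q macrophages against monocytes. A member was counted when its CPM differed by 2-fold or more in the same direction in both libraries, with 0.5 UMIs added to each count. Only Ms4a7 of the 7 members met this, with log2 ratios of 1.94 and 1.07 in libraries 1 and 2, and a log2 fold change of 1.65 ± 0.31 (SE, edgeR, n = 2 libraries). Among 9011 other genes, 3.94% were 2-fold higher and 1.74% 2-fold lower in both libraries. The remaining members ran from -1.17 ± 0.38 (Ms4a4c) to -0.22 ± 0.33 (Ms4a6d), with a median over the 7 of -0.54 beside 0.00222 over all genes tested. Ms4a4c and Ms4a4a were lower in both libraries, with ratios of -0.85 and -1.47 for the former and -0.73 and -1.42 for the latter. With every gate threshold doubled, the mean log2 ratio of Ms4a4a over the libraries went from -1.08 to 0.11, so its direction turned, and that of Ms4a4c went from -1.16 to -0.71. Ms4a6b and Ms4a6d changed sign between the libraries.

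The platelet genes Pf4 and Ppbp moved in the same direction as Ms4a7. The platelet set summed to 18031 and 3830 CPM in the C1q macrophage gate against 7640 and 1562 CPM in the monocyte gate, while 3 of its 5 genes (Gp9, Itga2b, Gp1bb) were at 0 in both gates of both libraries. The part of this in the result for Ms4a7 was not tested.

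The second comparison set resident macrophages against C1q macrophages. Ms4a8a was higher, with log2 ratios of 1.3 and 1.28 and a log2 fold change of 1.24 ± 0.26 (SE, n = 2). The monocyte set was higher in the resident gate too, at 4491 against 2238 CPM in library 1 and 10324 against 2587 CPM in library 2, and its part in this was not tested. Ms4a7 was lower, by at least 9.12-fold in library 1, where the resident gate had 0 UMIs, and 3.46-fold in library 2 (5 against 18 UMIs, counting interval 1.24 to 11.9). These were 1 member higher and 1 lower of 7, where 7.38% of the other genes were 2-fold higher and 4.36% 2-fold lower. The members' median log2 fold change was -1.62 beside -0.06 over all genes. The other 5 were lower in both libraries but reached 2-fold in both in no case: Ms4a6b had 2 UMIs in the resident gate of library 1, 63.6-fold below the C1q gate (counting interval 17.5 to 525), and a log2 ratio of -0.75 in library 2.

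The resident gate of library 2 was itself divided by its antibody tags. On the BC3 side, 9 cells had 22.4 CPM of Ms4a4c and 16.8 CPM of Ms4a6b, while on the BC2 side 12 cells had 482 and 454 CPM. Library 1 had 11 and 7.31 CPM. The BC3-side cells were thus near library 1 for both genes, and the BC2-side cells near the C1q macrophages. Ms4a8a went the other way, with 789 CPM on the BC3 side (interval 664 to 931) and 493 CPM on the BC2 side (interval 415 to 580). Ms4a7 had 0 and 5 UMIs. Both sides held the resident set, at 20490.5 CPM on the BC3 side and 14404 CPM on the BC2 side, and the C1q set was 2955 and 5067 CPM. With only the BC3 side of library 2, 6 of the 7 members met the 2-fold rule, Ms4a8a higher and Ms4a4c, Ms4a6b, Ms4a6c, Ms4a6d and Ms4a7 lower. With only the BC2 side none did, but Ms4a8a and Ms4a7 fell just short, with log2 ratios of 0.983 and -0.997 in library 2. All 38 cells of the C1q macrophage gate of library 2 lie on the BC2 side, so in the count with only the BC3 side gate and tag side cannot be told apart. This split was examined after the values were seen, and the part of the tags or of the C1q set in it was not tested.

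**Figure D2:**
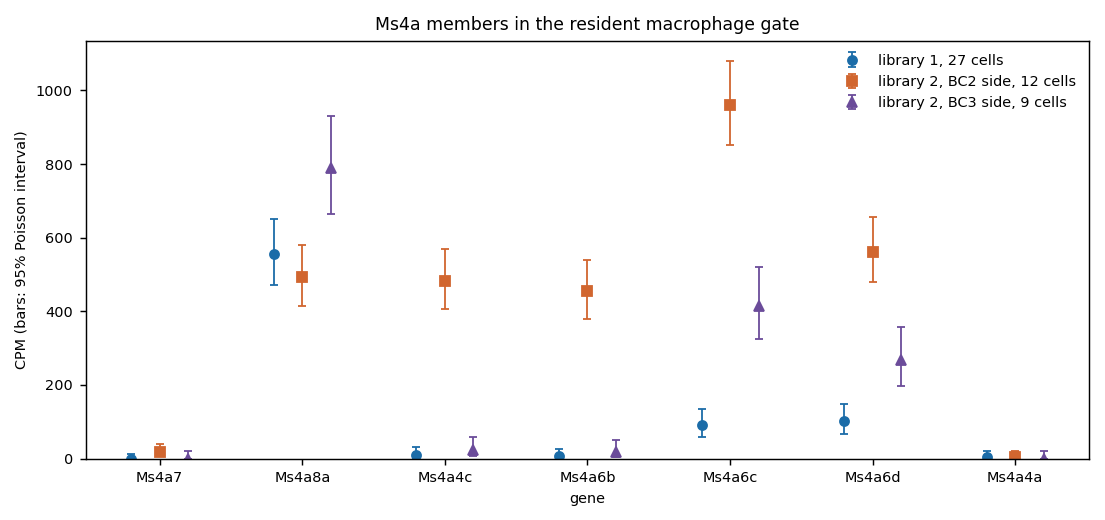
Level of the 7 Ms4a members (x axis) in the resident macrophage gate, in CPM (y axis, from 0). Circles are library 1 (27 cells), squares the BC2 side of library 2 (12 cells) and triangles its BC3 side (9 cells), with exact 95% Poisson intervals. Ms4a4c and Ms4a6b are near 0 in library 1 and on the BC3 side, and Ms4a8a is present in all 3.

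The third comparison set dendritic cells against C1q macrophages. Ms4a4c was higher, with log2 ratios of 1.77 and 1.31 and a log2 fold change of 1.71 ± 0.38 (SE, n = 2). The interferon set was higher in the dendritic gate too, at 299 against 58.6 CPM in library 1 and 864 against 418 CPM in library 2. Its part in the value of Ms4a4c was not tested. Ms4a8a was lower, with ratios of -3.57 and -1.93 and a log2 fold change of -2.73 ± 0.32. Ms4a7 was lower too, from 2 UMIs in each dendritic gate, by 77.5-fold in library 1 (counting interval 21.2 to 644) and 7.48-fold in library 2 (counting interval 1.79 to 66.5). These were 1 member higher and 2 lower of 7, where 5.96% of the other genes were 2-fold higher and 6.26% 2-fold lower. Ms4a6b and Ms4a6c had ratios of opposite sign in the 2 libraries, and the members' median was -1.04 beside -0.0040 over all genes.

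The fourth comparison set neutrophils against monocytes. All 7 members were 2-fold or more lower in both libraries, where 27.1% of the other genes were lower and 9.12% higher. The log2 fold changes ran from -2.57 ± 0.49 (Ms4a4a) to -4.62 ± 0.95 (Ms4a7), with a median of -3.21 beside -0.16 over all genes. Ms4a4a and Ms4a7 had 0 UMIs in the neutrophil gate of library 1, where the floor of 3 counts allows only at least 1.21-fold and 1.79-fold lower, so 5 of the 7 are 2-fold lower once those are set at their bounds. The tags divided this comparison as well, since 1421 of the 1447 neutrophil-gate cells of library 2 lie on the BC3 side and 366 of its 405 monocytes on the BC2 side, and gate and tag side largely coincide. Among 26 neutrophil-gate cells of library 2 on the BC2 side, Ms4a6c stood at 1087 CPM, against 69.3 CPM among 1421 cells on the BC3 side. The monocyte set was 13792 and 5913 CPM and the neutrophil set 72252 and 150237 CPM on the same sides, and without the BC2-side cells the 7 members were still lower, with ratios in library 2 between -4.71 and -3.53. Total RNA per cell is not measured by these values, and neutrophils had far fewer UMIs per cell than monocytes.

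**Figure D3:**
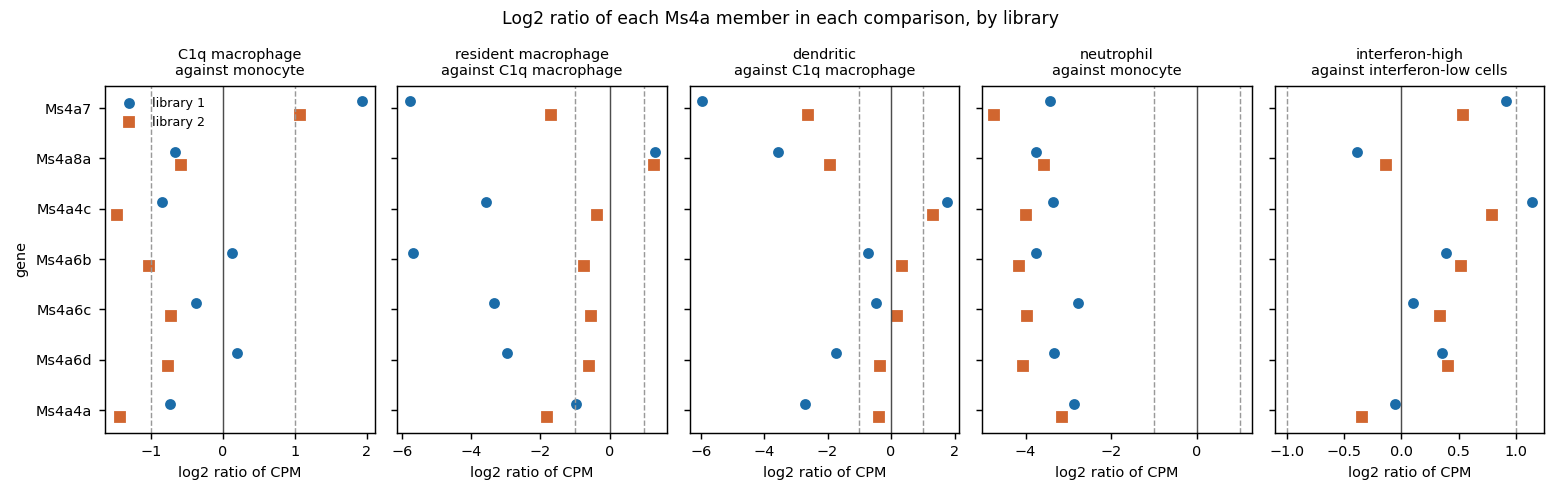
Log2 ratio of CPM (x axis, a separate scale for each panel) of each Ms4a member (y axis) in 5 comparisons, with 0.5 UMIs added. Circles are library 1, squares library 2, the solid line marks no difference and the dashed lines 2-fold. Ms4a7 lies past the dashed line in both libraries in the first 4 panels, higher in the first and lower in the others. Its library 1 point for neutrophils against monocytes comes from 0 neutrophil UMIs, which bound it only at 1.79-fold lower.

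Cells were also ordered by the C1q set alone, over all mononuclear cells outside the resident, dendritic, neutrophil and lymphocyte gates. Ms4a7 stood at 22.8 CPM in library 1 and 16.1 CPM in library 2 among cells with under 1 C1q UMI per 10000, and at 101 and 45.9 CPM among cells with 60 or more. In library 1 the middle bins were uneven, with 81.3 CPM from 5 to 20 and 49.4 CPM from 20 to 60, and in library 2 the 4 lower bins lay between 16.1 and 21.8 CPM. In library 2 the top bin alone stood apart. Ms4a4c declined from 269 to 180 CPM in library 1 and from 1161 to 823 CPM in library 2 between the lowest and the highest bin. Ms4a6d moved in opposite directions, from 635 to 889 CPM in library 1 and from 1176 to 1061 CPM in library 2, and so did Ms4a6b. The monocyte set fell along the same bins, from 8748 to 3971 CPM and from 13753 to 7902 CPM, and its part in these values was not tested.

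**Figure D4:**
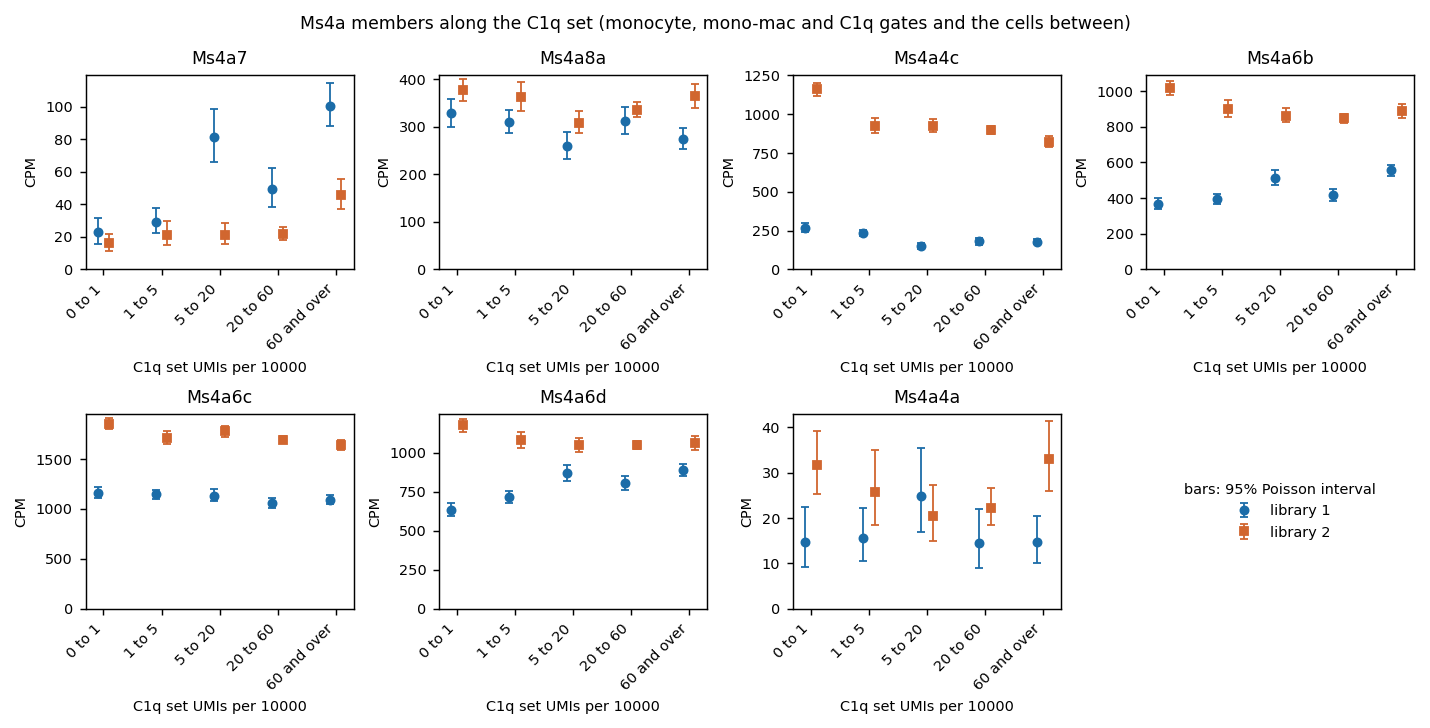
Level of the 7 Ms4a members in CPM (y axis from 0) in 5 bins of the C1q set (x axis, UMIs per 10000). Circles are library 1 and squares library 2, with exact 95% Poisson intervals. Ms4a7 is highest in the top bin of both libraries, and Ms4a4c is lowest there in library 2.

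The members differed between the libraries in different directions. Ms4a4c was higher in library 2 in all 6 gates, by log2 ratios of 1.99 in monocytes, 2.05 in monocyte-macrophages, 1.37 in C1q macrophages and 0.9 in dendritic cells. Of other genes in the monocyte gate, 9.72% were 2-fold higher in library 2 and 2.83% 2-fold lower. Ms4a7 was lower in library 2 in the monocyte and C1q gates, by -0.53 in monocytes, -0.88 in monocyte-macrophages and -1.4 in C1q macrophages. Ms4a8a differed by no more than 0.14 in either direction in the monocyte, monocyte-macrophage, C1q and resident gates. Library, sex and tagging cannot be told apart for these differences.

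Within each library, monocyte, monocyte-macrophage and C1q macrophage cells were split at the top 1 of 3 parts of the interferon set in their own gate. This gave 174 high and 406 low cells in library 1, and 282 and 562 in library 2. The set stood at 211 and 2.15 CPM in high and low cells of library 1, and at 1779 and 428 CPM in library 2. Low monocytes of library 1 held 0 UMIs of the set. High cells of library 1 thus held less of it than low cells of library 2, so the split marks different levels in each library. Ms4a4c was 346 CPM in interferon-high and 157 CPM in interferon-low cells of library 1, and 1322 and 764 CPM in library 2, log2 ratios of 1.14 and 0.79. This was the largest ratio of the 7 members in both libraries, and it reached 2-fold only in library 1. It held in each of the 3 gates, for example with 472 against 198 CPM in monocytes of library 1 and 1549 against 863 CPM in those of library 2. Ms4a7 followed with ratios of 0.92 and 0.54, but its direction depended on the gate. It was 162 against 69 CPM in C1q macrophages of library 1 and 66.4 against 25.7 CPM in those of library 2, and 18.4 against 28.9 CPM and 14.5 against 19.7 CPM in monocytes. Ms4a6b had 0.39 and 0.52 and Ms4a6d 0.36 and 0.4, whereas Ms4a8a was lower in interferon-high cells, at -0.39 and -0.14. By gate, Ms4a8a was lower in all but the C1q macrophages of library 2, at 303 against 228 CPM with overlapping intervals. In monocyte-macrophages of library 2 it was nearly level, at 345 against 354 CPM. No member was 2-fold apart in both libraries, where 0.51% of the other genes were higher and 0.289% lower.

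**Figure D5:**
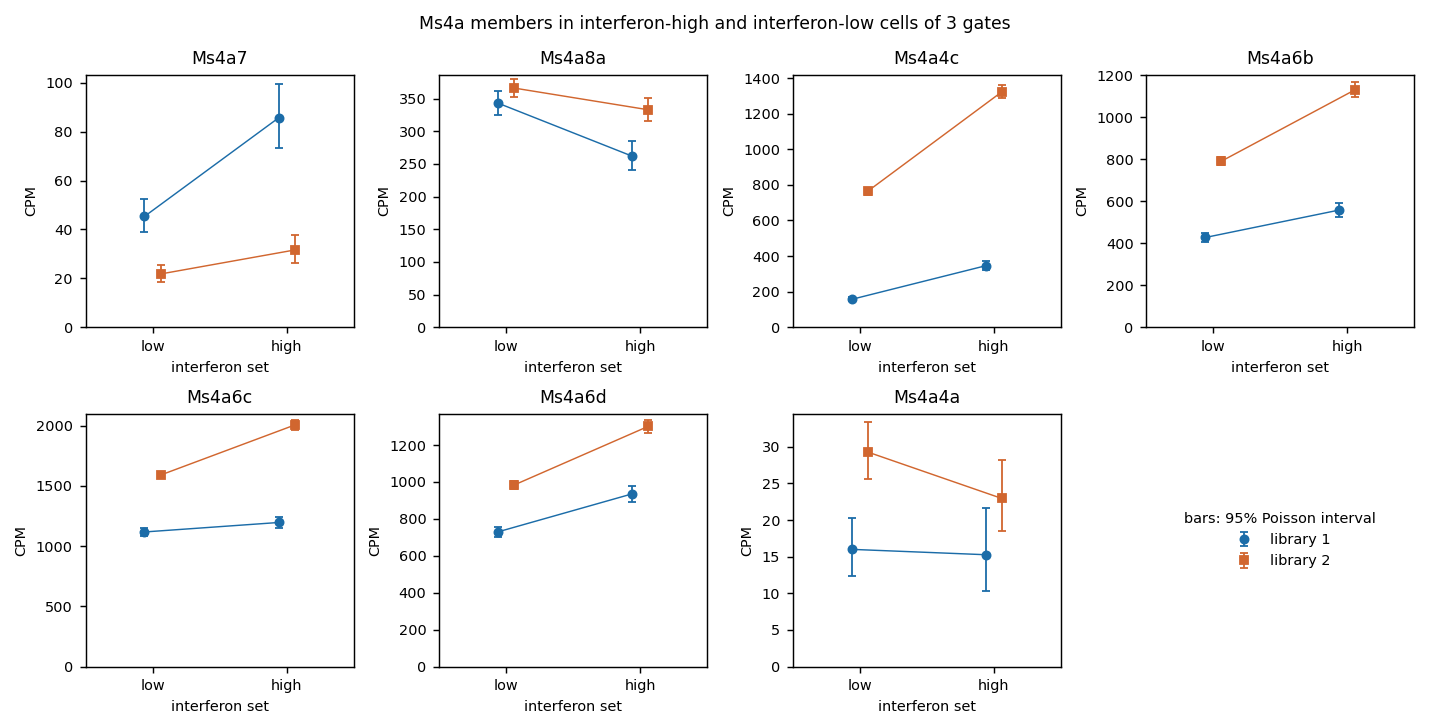
Level of the 7 Ms4a members in CPM (y axis from 0) in interferon-low and interferon-high cells (x axis) of the monocyte, monocyte-macrophage and C1q macrophage gates together. Circles are library 1 and squares library 2, with exact 95% Poisson intervals, and lines join the cells of 1 library. Ms4a4c is higher in interferon-high cells of both libraries, and Ms4a8a is lower.

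The members' patterns were compared over 12 points, 6 gates in each of 2 libraries, after centring log2(CPM + 1) within a library. These points share cells' library, depth and gates, so the correlations are descriptions. Ms4a6b and Ms4a6c, the pair with the shared promoter run and the most similar coding sequence, were the most alike of the members (r = 0.973). Their transcript ends share identical stretches. How reads of such stretches were counted is not given in the sources used here, and their part in this value was not tested. Ms4a6c and Ms4a6d followed with r = 0.95. Ms4a8a and Ms4a4c were the least alike (r = 0.071). Ms4a7 was closest to Ms4a6d among the members (r = 0.915).

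Among 4784 genes, the closest to Ms4a7 were Vps29 (r = 0.984), a subunit of the retromer that sorts endosomal cargo, Ccl7 (r = 0.967), a chemokine for monocytes, and Llph (r = 0.964). Ms4a8a was closest to Ttc39c (r = 0.99), Anxa3 (r = 0.976), an annexin, and Cndp2 (r = 0.974), a dipeptidase. Ms4a4c was closest to Filip1l (r = 0.973), Unc93b1 (r = 0.96), a chaperone of endosomal Toll-like receptors, and Tmem173 (r = 0.951), the gene of STING. For Ms4a6c the closest were Pid1 (r = 0.984), Srsf6 (r = 0.982) and Borcs7 (r = 0.982), and Ms4a6b shared Pid1 (r = 0.975) and Ms4a6c, followed by D5Ertd579e (r = 0.97). For Ms4a6d they were BC003965 (r = 0.985), Exosc3 (r = 0.983) and Rrbp1 (r = 0.974), and for the sparse Ms4a4a Plgrkt (r = 0.964), Arpc2 (r = 0.931) and Actr1a (r = 0.927).

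The other Ms4a genes checked the gates. Ms4a1 stood at 881 and 503 CPM in the B gate and at 8.57 CPM or less in the 6 myeloid gates. Ms4a4b stood at 1412 CPM in the T or NK gate of library 2 (44 cells), where Ms4a6b also reached 628 CPM and was seen in 41 of 44 cells. In the myeloid gates Ms4a4b was 21.3 and 42.1 CPM in dendritic cells and 6.82 and 10.3 CPM in C1q macrophages. It was higher in the former, with a log2 fold change of 1.82 ± 0.45 (SE, n = 2, edgeR quasi-likelihood test, adjusted p = 0.00897). The T cell set was at 7.74 and 56.9 CPM in the dendritic gate against 0.454 and 2.06 CPM in the C1q macrophage gate. The NK cell set was at 5.8 and 79.2 CPM against 0 and 2.06 CPM in the same gates. The dendritic set, which includes Klrd1, stood at 744 CPM in the T or NK gate of library 2. In the dendritic gate it stood at 2448 and 1211 CPM. The part of T or NK cells in the value of Ms4a4b was not tested.

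Genes related to the family were then read from lists that exclude the gate genes. Tmem176a and Tmem176b, relatives of the MS4A genes that are known from dendritic cells, were at 208 and 210 CPM and at 197 and 257 CPM in the dendritic gate. Both were higher there than in C1q macrophages by edgeR, with log2 fold changes of 3.1 ± 0.5 (SE, n = 2, adjusted p = 0.00025) and 2.58 ± 0.39 (adjusted p = 0.000158). By edgeR, 8.97% of all other genes were higher and 7.22% lower in this comparison. Ms4a4c, Ms4a4b and both relatives were thus higher in dendritic cells than in C1q macrophages.

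The dectin-1 and adaptor list holds 15 genes, and 13 of them were tested, such as Tyrobp and Syk. Clec7a, the dectin-1 gene itself, was not among those tested. In C1q macrophages against monocytes 1 was higher and 0 lower, where edgeR called 2.14% of all genes higher and 1.51% lower. That gene was Trem2, a lipid receptor that signals through Tyrobp, at 0.99 ± 0.24 (edgeR, adjusted p = 0.0266). In the resident gate against the C1q gate, Trem2 was lower by edgeR (-1.95 ± 0.33, adjusted p = 0.000605) and no other gene of the list passed. Of all genes, 5.1% were higher and 3.28% lower in that comparison. In dendritic cells Trem2 alone passed as well (-4.87 ± 0.39, edgeR adjusted p = 2.37e-07), where 8.97% of all genes were higher and 7.22% lower. Trem2 and Ms4a7 thus had the same direction in these 3 comparisons. In neutrophils against monocytes 8 of the 13 were higher and 2 lower, led among the higher ones by Syk, a kinase of these receptors (2.15 ± 0.23, edgeR adjusted p = 6.93e-07), where 25% of all genes were higher and 27.1% lower. Lyn and Inpp5d, among the 8, had CPM ratios of opposite sign in the 2 libraries.

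The alternative activation list holds 16 genes, 15 of them tested. In C1q macrophages 3 were higher than in monocytes and 1 lower by edgeR, where 2.14% of all genes were higher and 1.51% lower. Over all lists in this comparison, edgeR called 4 genes higher and 3 lower, and DESeq2 called 1 higher and 5 lower. Cd5l, a secreted macrophage protein, was higher (2.53 ± 0.63, edgeR adjusted p = 0.0294), with log2 ratios of 2.81 and 0.29 in libraries 1 and 2. Clec10a, a lectin of galactose-type sugars (1.57 ± 0.3, edgeR adjusted p = 0.00466), and Mrc1, the mannose receptor (1.21 ± 0.27, edgeR adjusted p = 0.0138), were higher in both libraries. Tgm2, a transglutaminase, was lower (-1.18 ± 0.22, edgeR adjusted p = 0.00413). In resident macrophages against C1q macrophages 1 was higher and 4 lower, where 5.1% of all genes were higher and 3.28% lower by edgeR. Cd5l was higher (7.07 ± 0.35, edgeR adjusted p = 2.44e-10), and Mrc1 was lower (-3.29 ± 0.39, edgeR adjusted p = 1.24e-05). Ms4a8a, though described in alternatively activated macrophages, was thus higher in the gate where Mrc1 was lower. In dendritic cells 1 was higher and 8 lower than in C1q macrophages, where 8.97% of all genes were higher and 7.22% lower. In neutrophils 3 were higher and 10 lower than in monocytes, where 25% of all genes were higher and 27.1% lower.

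The interferon-stimulated list holds 22 genes outside the gate set, all tested. In C1q macrophages against monocytes 0 were higher and 2 lower by edgeR, where 2.14% of all genes were higher and 1.51% lower. The 2 were Slfn1 (-1.56 ± 0.27, edgeR adjusted p = 0.00227) and Slfn8 (-1.1 ± 0.26, edgeR adjusted p = 0.0184). In dendritic cells against C1q macrophages 7 were higher and 1 lower, where 8.97% of all genes were higher and 7.22% lower. Ifi205 (2.76 ± 0.47, edgeR adjusted p = 0.000451) and Herc6 (1.83 ± 0.61, edgeR adjusted p = 0.0479) showed the largest log2 fold changes. Ms4a4c was likewise higher in dendritic cells than in C1q macrophages. In resident macrophages against C1q macrophages 1 was higher, Cmpk2 (4.24 ± 1.25, edgeR adjusted p = 0.042), and 0 lower. Of all genes, 5.1% were higher and 3.28% lower there. In neutrophils against monocytes 11 were higher and 3 lower, where 25% of all genes were higher and 27.1% lower. Ms4a4c was lower there. The CPM ratios of 4 of the 11 (Stat2, Ifi47, Xaf1, Herc6) and of Mx1 and Ifi205 among the 3 had opposite signs in the 2 libraries.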

How the data were processed

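Unscaled UMI counts per gene and barcode were deposited by the authors for 2 libraries of CD45+ CD11b+ pleural cells. Per the submitters' processing notes, Cell Ranger 3.0.1 and mm10 were used; the annotation is not given in the sources used here. Depth was 11543829 and 20322996 UMIs.

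Filters of at least 300 genes and at most 10% mitochondrial UMIs removed 25 and 61 barcodes, and the 10 and 66 barcodes nearest to simulated doublets (0.876% and 2.27%) were removed. Gates used marker sums per 10000 UMIs: neutrophil 200 (other gates under 50), monocyte 40, C1q 20 (monocyte and dendritic gates under 5), resident 20 with 3 genes seen, dendritic 5 with 2 genes seen, and lymphocytes and other types 10 (erythroid 200). These thresholds were set after the marker sums were seen, without Ms4a genes. Gates needed 20 cells in each library. The members, markers and lists were chosen with earlier results of these data known.

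UMIs summed per library and gate were fitted with edgeR 4.0.16 (quasi-likelihood, TMM, library as a block, R 4.3.3) over all genes passing its low-count filter, with Benjamini-Hochberg adjusted p under 0.05 as the call. Counts of other genes leave out gate genes and members, which left 9011 genes. The fit was tested on simulated data. The SE is the log2 fold change over the root of the moderated F. Intervals are exact at 95% (Poisson for levels, Clopper-Pearson for shares and folds), and these and the floor of 3 counts cover counting error only. Gates were paired because they come from the same library. Named genes were the 7 members, Ms4a genes with at least 50 UMIs, the 3 genes of most similar pattern per member (mean of at least 20 CPM, at least 100 UMIs in each library) and at most 4 called genes per list and comparison. Coding sequences were aligned with biopython 1.88; coordinates are GENCODE, GRCm38. DESeq2 1.42.0 served as an alternative.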

Additional observations from a re-analysis of the deposited data

How the results depend on the processing

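The resident gate holds 27 and 21 cells and the C1q macrophage gate of library 2 holds 38, and 2 libraries limit every comparison. With every gate threshold halved, the C1q macrophage and resident gates fell under 20 cells in library 2, and with library 2 limited to the BC2 side the resident gate did, so those comparisons have no value there. Leaving out a library leaves no residual degrees of freedom for the count of genes called, so that was not run.

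Of the members, Ms4a7 in C1q macrophages against monocytes, Ms4a8a and Ms4a7 in resident against C1q macrophages, and Ms4a4c, Ms4a7 and Ms4a8a in dendritic cells against C1q macrophages met the 2-fold rule with no doublet removal and with only cells of at least 2000 UMIs. With thresholds doubled, 4 members met it in the resident comparison in place of 2. At 3-fold the counts were 0 in place of 1 (C1q against monocyte) and 1 in place of 2 (resident), and at 1.5-fold they were 3, 5 and, for the interferon split, 1 in place of 0. In single libraries they ranged from 1 to 4 (C1q against monocyte), 3 to 6 (resident), 3 to 5 (dendritic), 7 in each (neutrophil) and 0 to 1 (interferon). The 7 of library 1 include Ms4a4a and Ms4a7, whose 0 neutrophil UMIs bound them only at 1.21-fold and 1.79-fold lower. As settings chosen after the data were seen, the BC3 side of the resident gate gave 6 and its BC2 side 0, with Ms4a8a and Ms4a7 just short of 2-fold there. Of 42 member levels, 21 of the 28 available lay within 1.5-fold with thresholds halved, and between 25 and 29 of 42 in single libraries. At 500 UMIs the gate with the highest share was unchanged for 8 of 14 pairs of member and library.

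For genes called, no replicate block gave 21 in place of 329 (C1q against monocyte), 314 in place of 756 (resident) and 426 in place of 1459 (dendritic), and for list genes 0 in place of 7, 3 in place of 7, 9 in place of 21 and 18 in place of 40 (neutrophil); here the libraries' difference enters the error. With no filter on low counts 584 genes and 18 list genes were called in C1q macrophages against monocytes, and 11 list genes in the resident comparison. In neutrophils against monocytes, 743 genes and 7 list genes in place of 4691 and 40 were called with library 2 on the BC2 side (26 neutrophil-gate cells), and 3127 genes with cells of at least 2000 UMIs. The cause of the other changes was not tested. DESeq2 and its size factors gave total counts within 1.5-fold in all 4 comparisons, but for list genes in C1q macrophages against monocytes DESeq2 called 1 higher and 5 lower in place of 4 and 3.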
